A study of Mus musculus with 32 samples.

Results

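The genes described here are 10 members of the BCL2 family, chosen by name and looked up by Entrez number among the 18588 genes of the deposited table. They are 6 pro-survival genes (Bcl2a1a, Bcl2a1b, Bcl2a1d, Bcl2, Bcl2l1 and Mcl1), 2 genes of pore-forming effectors (Bax and Bak1) and 2 BH3-only genes (Bcl2l11, which encodes BIM, and Bid). All 10 had a row, no filter on low values was applied, and in every library used each of them lay more than 1 log2 unit above the lowest value of that library. BCL2 family proteins decide whether the outer membrane of mitochondria stays intact. The effectors BAX and BAK form pores through which cytochrome c leaves to start the caspase cascade, pro-survival members bind and restrain effectors and BH3-only proteins, and BH3-only proteins carry death signals to both. In myeloid cells A1, the product of the Bcl2a1 genes, is known as a short-lived survival protein that inflammatory signals induce.

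Each library was made from CD11b MicroBead captures of pooled forebrains from 8 to 10 female mice, so that libraries of a group are separate pools. Microglia of rTg4510 mice and of WT littermates were sampled at 2, 4, 6 and 8 months of age, which asks how microglia differ before and during tau pathology. The rTg4510 mice carry 2 transgenes, human tau P301L under a tetracycline-responsive element and the tTA transactivator under the CaMKIIα promoter, which place tau expression in forebrain neurons. The WT littermates, with the strain label 129/FVB F1, carry neither, so the WT groups do not control for tTA alone. The authors had left out 4 of the 32 libraries after quality control, which leaves n = 4 in each group of 2 or 6 months and n = 3 in each group of 4 or 8 months. Values are the deposited log2 gene signals, which the authors had median normalized, and the median over genes was 5.63 in each library. Signals are not divided by gene length, so levels are compared between groups for a gene and not between genes. A marker named for the highest signal of its list is picked by that signal, which does not rank abundance. Library minima were between 1.23 and 1.92.

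Microglial identity was checked with 9 marker genes, none of which came within 1 log2 unit of a library minimum. At 6 months Cx3cr1, which had the highest signal, was measured at a log2 value of 13.90 ± 0.13 in WT (SD, n = 4) and 13.33 ± 0.13 in rTg4510 (n = 4). The homeostatic genes Tmem119 and Sall1 were lower in rTg4510 by over 1.5 fold from 4 months on, with log2 fold changes of -0.78 ± 0.10 (SE) and -0.86 ± 0.10 at 6 months. At 2 months Tmem119 (-0.35 ± 0.10), Cx3cr1 (-0.35 ± 0.10) and Itgam (-0.24 ± 0.05) were already lower past an FDR of 0.05, by less than 1.5 fold. In bulk RNA, fewer cells of a type and less RNA per cell cannot be told apart.

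The 6 pro-survival genes were each called higher and Bid was called lower in rTg4510 microglia at 1 or more ages, although after quantile normalization Mcl1 was called at none and had a log2 fold change of -0.08 at 4 months. The number of members that differed was smallest at 2 months, when the Bcl2a1 genes alone passed the thresholds. Differences were tested with limma in a linear model per gene with 8 group means and unmoderated variance (20 residual degrees of freedom). A gene was called when its FDR (Benjamini-Hochberg over all 18588 genes at an age) was under 0.05 and its change above 1.5 fold. At 2 months 3 of 10 members were called higher (1.58% of all genes) and 0 lower (0.403% of all genes), with 6 of 10 members at an unadjusted p under 0.05. Counts at an unadjusted p are given without a share of all genes and are not read as a result. At 4 months 5 were called higher (9.47% of all genes) and 1 lower (4.33%), at 6 months 4 higher (11.3%) and 1 lower (8.54%), and at 8 months 6 higher (10.5%) and 1 lower (5.37%). The median log2 fold change of the 6 pro-survival genes was 0.49, 1.28, 1.13 and 1.17 at 2, 4, 6 and 8 months. That of all 18588 genes lay between -0.04 and 0.01. Of the 6 genes 3 are the near-identical Bcl2a1 copies, which may share reads, so counts and medians may weigh them more than once. At 2 months Bcl2, Bcl2l1 and Mcl1 had log2 fold changes of -0.01, 0.18 and 0.31 and were not called. The libraries of both genotypes did not overlap for 3 of 10 members at 2 months (11% of all genes), 7 at 4 months (36.6%), 9 at 6 months (32.8%) and 9 at 8 months (36.7%).

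**Figure D1:**
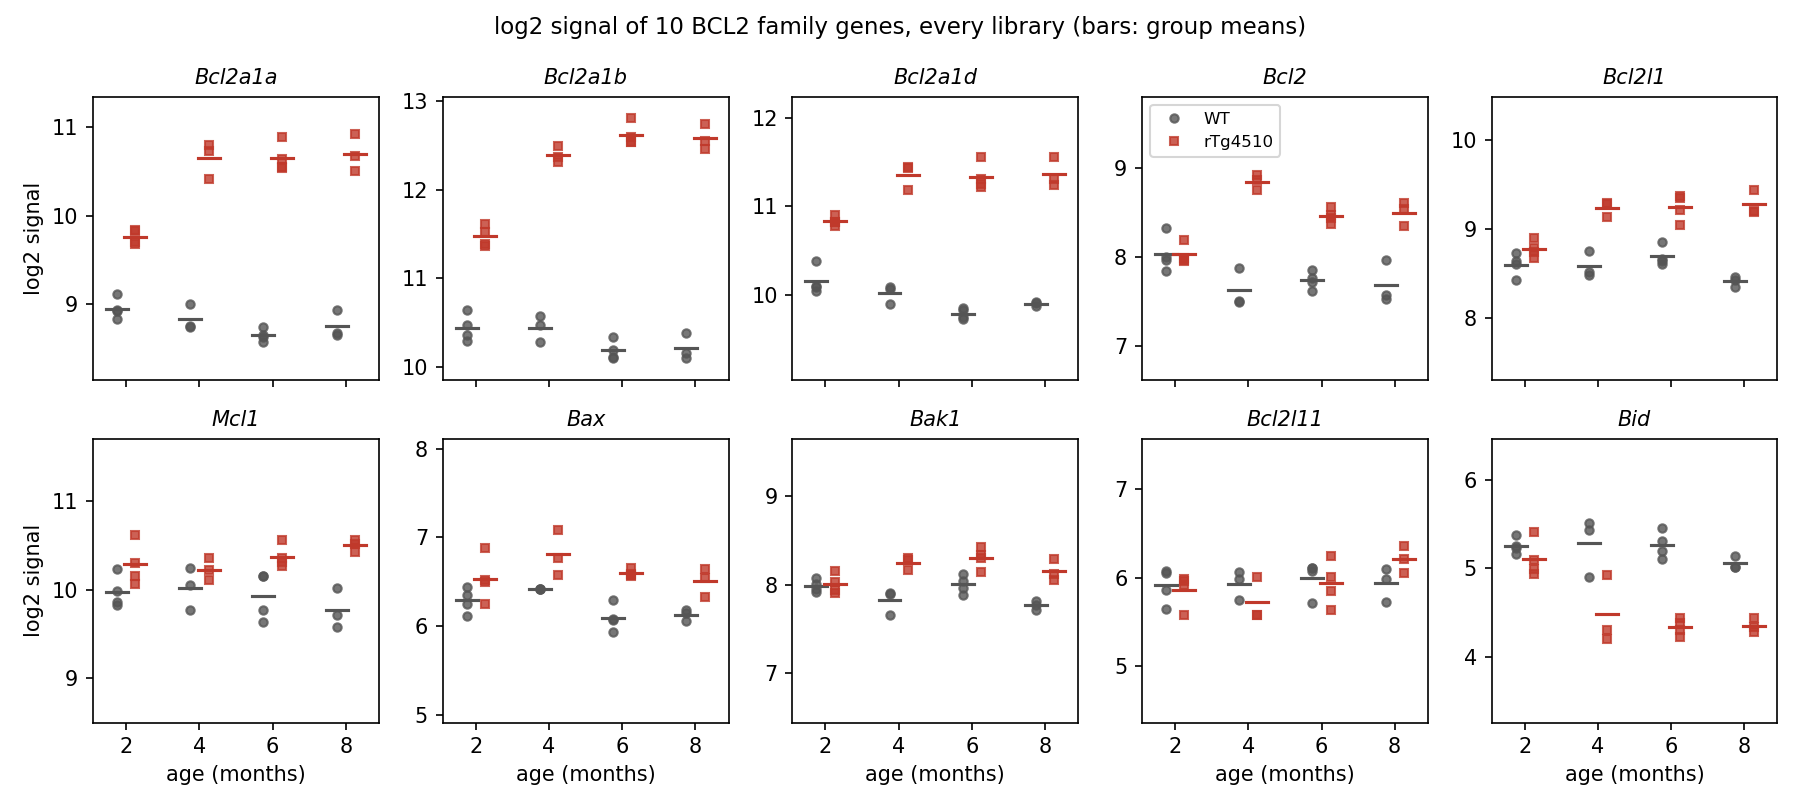
Log2 signal (vertical axis) of the 10 genes against age in months, with 1 point per library for WT (circles) and rTg4510 (squares) and a bar at each group mean. Each panel has its own range. The rTg4510 libraries of Bcl2a1a, Bcl2a1b and Bcl2a1d lie above all WT libraries at every age, and those of Bid lie below them at 6 and 8 months.

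Bcl2a1b, a gene of the A1 survival protein, was higher in rTg4510 at every age. At 2 months its log2 signal was 10.64, 10.29, 10.36 and 10.48 in the 4 WT libraries and 11.62, 11.39, 11.53 and 11.37 in the 4 rTg4510 libraries. At 4 months it was 10.58, 10.28 and 10.47 in WT and 12.31, 12.37 and 12.49 in rTg4510. The lowest rTg4510 library lay above the highest WT library at both ages, by a wider gap at 4 months. Values of 6 months were 10.19, 10.10, 10.33 and 10.11 in WT and 12.54, 12.60, 12.80 and 12.53 in rTg4510. At 8 months it was 10.10, 10.38 and 10.16 in WT and 12.73, 12.55 and 12.46 in rTg4510. Again no libraries overlapped, and the WT libraries of all ages stayed between 10.10 and 10.64. The log2 fold change was 1.03 ± 0.09 (SE) at 2 months (FDR = 9.69e-07), 1.95 ± 0.11 at 4 months (FDR = 3.83e-11), 2.43 ± 0.09 at 6 months (FDR = 6.64e-14) and 2.37 ± 0.11 at 8 months (FDR = 1.9e-12), a 2.05-fold difference at 2 months and a 5.4-fold difference at 6 months.

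Bcl2a1a showed the same order of groups. Its log2 signal was 9.12, 8.94, 8.84 and 8.92 in WT and 9.83, 9.68, 9.84 and 9.71 in rTg4510 at 2 months. At 4 months it was 9.005, 8.74 and 8.75 in WT and 10.42, 10.73 and 10.80 in rTg4510. All rTg4510 libraries were above all WT libraries at both ages. At 6 months it was 8.57, 8.66, 8.75 and 8.64 in WT and 10.55, 10.64, 10.89 and 10.54 in rTg4510, and at 8 months 8.66, 8.93 and 8.68 in WT and 10.92, 10.67 and 10.51 in rTg4510. The rTg4510 means at 4, 6 and 8 months (10.65, 10.65 and 10.70) differed by less than the spread within these groups. Its log2 fold change was 0.81 ± 0.10 (FDR = 5.03e-05) at 2 months, 1.82 ± 0.12 (FDR = 4.14e-10) at 4 months, 2.00 ± 0.10 (FDR = 5.14e-12) at 6 months and 1.94 ± 0.12 (FDR = 1.51e-10) at 8 months.

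Bcl2a1d had the smallest difference of these copies at each age. At 2 months its log2 signal was 10.39, 10.09, 10.05 and 10.10 in WT and 10.82, 10.83, 10.91 and 10.78 in rTg4510. At 4 months it was 10.10, 9.90 and 10.07 in WT and 11.19, 11.44 and 11.44 in rTg4510. The genotypes were apart at both ages, although 1 WT library of 2 months (10.39) stood above the other 3. Values of 6 months were 9.85, 9.75, 9.84 and 9.73 in WT and 11.22, 11.31, 11.55 and 11.26 in rTg4510, and at 8 months 9.92, 9.88 and 9.92 in WT and 11.55, 11.31 and 11.24 in rTg4510. Its log2 fold change was 0.68 ± 0.08 (FDR = 4.16e-05), 1.34 ± 0.10 (FDR = 1.95e-09), 1.54 ± 0.08 (FDR = 1.2e-11) and 1.46 ± 0.10 (FDR = 4.69e-10) at 2, 4, 6 and 8 months. With all 32 libraries in the fit the 2-month differences of Bcl2a1a (FDR = 0.0648) and Bcl2a1d (FDR = 0.0519) were not called, while that of Bcl2a1b was. After quantile normalization the 2-month difference of Bcl2a1d was 0.52 ± 0.09, under the fold threshold.

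How far each copy was measured apart from the others is uncertain, because the treatment of reads that match several copies is not given in the sources used here. In the mouse reference (GRCm38, strain C57BL/6J, whereas the WT mice are labelled 129/FVB F1) the 3 copies lie on chromosome 9. Bcl2a1d is on the minus strand at chr9:88723288-88731850, and Bcl2a1a at chr9:88956920-88962416 and Bcl2a1b at chr9:89199273-89207838 are on the plus strand. Their coding sequences in GENCODE M21 have 519 bases each and differ at 12 positions among the 3 copies. Bcl2a1a and Bcl2a1b have 97.9% identity, Bcl2a1a and Bcl2a1d 98.7%, and Bcl2a1b and Bcl2a1d 98.8%. Of all windows of 100 bases in a transcript, 56.5% were found in no other of the 3 copies for Bcl2a1a, 68.9% for Bcl2a1b and 45.3% for Bcl2a1d. The first 60 coding bases, in exon sequence of the respective strand, hold 6 of the 12 differing positions and are shown because they tell the copies apart, with differing positions in capitals (Bcl2a1a at chr9:88957051-88957110, Bcl2a1b at chr9:89199360-89199419, Bcl2a1d at chr9:88731660-88731719).
Bcl2a1a: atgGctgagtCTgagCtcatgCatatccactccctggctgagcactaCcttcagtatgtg
Bcl2a1b: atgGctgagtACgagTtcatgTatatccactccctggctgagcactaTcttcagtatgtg
Bcl2a1d: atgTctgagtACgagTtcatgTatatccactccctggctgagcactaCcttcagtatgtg

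The 3 copies moved together, so the sequences before their starts were compared. The RefSeq promoter table (GRCm38.p6) held a window for each of the 10 members. A stretch of 120 bases upstream of the RefSeq start of Bcl2a1a was identical in Bcl2a1b and had 94.2% identity with Bcl2a1d, whose stretch is 6 bases shorter. Capitals mark, in this order, TGAATCA, a match to TGANTCA, and a GAGGAAGT motif (PU.1 type). The pattern TGANTCA is a loosened AP-1-like motif that allows any middle base, so this match is not a match to a strict AP-1 site. Both strands of the 250 bases before each start were searched, and the motifs were chosen after the sequences had been seen. GAGGAAGT was found in 2.44% of 32851 windows, and among the members in the windows of the 3 copies and of Bak1. TGANTCA was found in 6.75% of windows and among the members in those of the 3 copies. The NF-kappaB consensus was found in 7.25% of windows, in none of the 3 copies, and in 1 of 3 windows of Bcl2l1. A match describes letters and not a bound site. The stretches lie at chr9:88956730-88956849 (Bcl2a1a, plus strand), chr9:89199039-89199158 (Bcl2a1b, plus strand) and chr9:88731921-88732034 (Bcl2a1d, minus strand).
Bcl2a1a: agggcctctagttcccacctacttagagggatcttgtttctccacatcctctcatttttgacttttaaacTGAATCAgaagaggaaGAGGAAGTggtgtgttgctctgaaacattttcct
Bcl2a1b: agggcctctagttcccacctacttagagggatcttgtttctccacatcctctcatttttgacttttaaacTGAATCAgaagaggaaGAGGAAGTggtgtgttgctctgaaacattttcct
Bcl2a1d: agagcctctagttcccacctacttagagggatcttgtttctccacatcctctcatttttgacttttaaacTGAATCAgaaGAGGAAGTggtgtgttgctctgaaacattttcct

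Bcl2, the founding survival gene of the family (chr1:106538176-106714290), was alike in both genotypes at 2 months within an interval of -0.23 to 0.22 and higher in rTg4510 at later ages. At 2 months its log2 signal was 7.84, 8.32, 8.00 and 7.96 in WT and 7.96, 7.99, 7.97 and 8.20 in rTg4510. At 4 months it was 7.51, 7.49 and 7.87 in WT and 8.86, 8.76 and 8.93 in rTg4510. The genotypes overlapped at 2 months and were far apart at 4 months. Values of 6 months were 7.86, 7.71, 7.77 and 7.61 in WT and 8.37, 8.47, 8.44 and 8.56 in rTg4510, and at 8 months 7.53, 7.57 and 7.97 in WT and 8.34, 8.61 and 8.54 in rTg4510. The log2 fold change was -0.01 ± 0.11 (FDR = 0.992) at 2 months, 1.23 ± 0.13 (FDR = 2.19e-07) at 4 months, 0.72 ± 0.11 (FDR = 2.06e-05) at 6 months and 0.81 ± 0.13 (FDR = 3.79e-05) at 8 months. In a fit of the 8-month libraries alone the same difference had an FDR of 0.0524.

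Bcl2l1, which encodes the survival protein BCL-XL (chr2:152758732-152833803), was called higher in rTg4510 at 4 and 8 months. At 4 months its log2 signal was 8.76, 8.48 and 8.52 in WT and 9.13, 9.29 and 9.28 in rTg4510. At 6 months it was 8.64, 8.60, 8.67 and 8.85 in WT and 9.22, 9.35, 9.05 and 9.38 in rTg4510. At 8 months it was 8.42, 8.46 and 8.34 in WT and 9.19, 9.45 and 9.20 in rTg4510. No libraries overlapped at these 3 ages, whereas at 2 months WT (8.42 to 8.73) and rTg4510 (8.68 to 8.90) did. The log2 fold change was 0.18 ± 0.09 (FDR = 0.299) at 2 months, 0.65 ± 0.10 (FDR = 3.36e-05) at 4 months, 0.56 ± 0.09 (FDR = 2.37e-05) at 6 months and 0.87 ± 0.10 (FDR = 6.2e-07) at 8 months. The 6-month difference of 1.47 fold was just under the fold threshold. It passed without rTg4510 replicate 3 (0.62 ± 0.09) or without WT replicate 4 (0.61 ± 0.09) of that age, and the 4-month difference fell under the fold threshold after quantile normalization (0.50 ± 0.09).

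Mcl1, a survival gene with a short-lived protein (chr3:95656944-95663179), was called higher at 8 months. There its log2 signal was 9.72, 10.02 and 9.58 in WT and 10.56, 10.51 and 10.43 in rTg4510, with no overlap. At 6 months it was 9.63, 9.77, 10.15 and 10.15 in WT and 10.26, 10.36, 10.56 and 10.31 in rTg4510, and these libraries did not overlap either. At 2 and 4 months the genotypes overlapped, with WT between 9.77 and 10.24 and rTg4510 between 10.07 and 10.62. In log2 fold change this was 0.31 ± 0.14 (FDR = 0.271), 0.20 ± 0.16 (FDR = 0.419), 0.44 ± 0.14 (FDR = 0.0185) and 0.73 ± 0.16 (FDR = 0.00182) at 2, 4, 6 and 8 months. Quantile normalization in place of the authors' median normalization took the 8-month difference to 0.38 ± 0.16 (FDR = 0.0725) and the 4-month difference to -0.08 ± 0.16.

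The effector genes Bax and Bak1 were called at no age. Both passed the FDR threshold at 4, 6 and 8 months with changes under 1.5 fold. At 6 months the log2 signal of Bax (chr7:45461695-45466903) was 6.29, 5.94, 6.08 and 6.07 in WT and 6.65, 6.56, 6.58 and 6.59 in rTg4510. That of Bak1 (chr17:27019812-27028627) was 7.96, 8.04, 8.11 and 7.88 in WT and 8.33, 8.14, 8.43 and 8.30 in rTg4510. For both genes all rTg4510 libraries were above all WT libraries at 4, 6 and 8 months, by small gaps, and overlapped them at 2 months. For Bax the log2 fold change was 0.25 ± 0.11 (FDR = 0.284), 0.39 ± 0.13 (FDR = 0.0372), 0.50 ± 0.11 (FDR = 0.00169) and 0.38 ± 0.13 (FDR = 0.0412) at 2, 4, 6 and 8 months. That of Bak1 was 0.02 ± 0.07 (FDR = 0.946), 0.43 ± 0.08 (FDR = 0.000544), 0.30 ± 0.07 (FDR = 0.0028) and 0.38 ± 0.08 (FDR = 0.00133). With all 32 libraries in the fit the 4-month value of Bak1 was -0.02 ± 0.21. Leaving out 1 library in turn gave values for Bax from 0.13 to 0.34 at 2 months and from 0.25 to 0.51 at 4 months.

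Bid, whose protein links death receptors and caspase-8 to the mitochondrial pathway (chr6:120893119-120917062), was the only member called lower in rTg4510, which it was from 4 months on. At 2 months its log2 signal was 5.38, 5.22, 5.25 and 5.16 in WT and 4.94, 5.09, 5.41 and 4.99 in rTg4510. At 4 months it was 5.51, 5.44 and 4.90 in WT and 4.31, 4.93 and 4.20 in rTg4510. The genotypes overlapped at both ages, at 4 months through 1 library of each genotype. At 6 months it was 5.19, 5.11, 5.30 and 5.45 in WT and 4.22, 4.44, 4.39 and 4.30 in rTg4510, and at 8 months 5.01, 5.02 and 5.13 in WT and 4.44, 4.34 and 4.28 in rTg4510. At these ages every rTg4510 library lay below every WT library. In log2 fold change this was -0.15 ± 0.14 (FDR = 0.708) at 2 months, -0.80 ± 0.16 (FDR = 0.000863) at 4 months, -0.93 ± 0.14 (FDR = 2.4e-05) at 6 months and -0.70 ± 0.16 (FDR = 0.00259) at 8 months. In a fit of the 4-month libraries alone the 4-month difference had an FDR of 0.185.

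Bcl2l11, the gene of the BH3-only protein BIM (chr2:128126038-128162547), passed no threshold at any age. Over the 28 libraries its log2 signal in WT lay within 5.65 and 6.08 at 2 months, 5.75 and 6.07 at 4 months, 5.71 and 6.11 at 6 months, and 5.73 and 6.10 at 8 months. In rTg4510 it ranged from 5.58 to 5.98, 5.57 to 6.01, 5.63 to 6.25 and 6.05 to 6.36 at these ages, and the genotypes overlapped at each of them. Its log2 fold change had a 95% interval from -0.35 to 0.25 at 2 months, from -0.56 to 0.14 at 4 months, from -0.37 to 0.24 at 6 months and from -0.08 to 0.62 at 8 months.

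**Figure D2:**
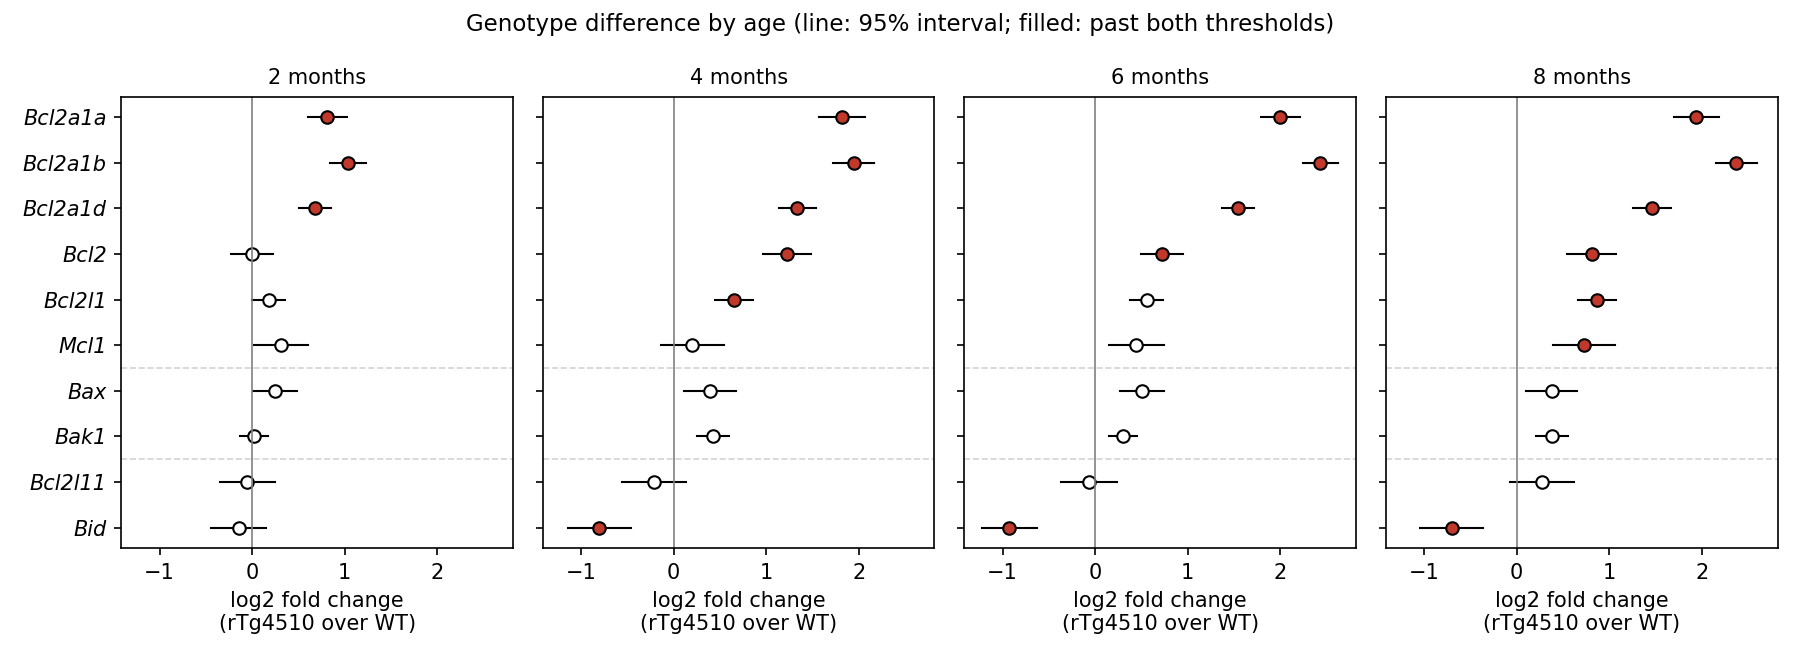
Log2 fold change of rTg4510 over WT (horizontal axis) for the 10 genes at 2, 4, 6 and 8 months, with the 95% interval as a line. Filled points passed the FDR and fold thresholds, open points did not, and dashed lines separate pro-survival genes, effectors and BH3-only genes. Values run from -0.93 (Bid at 6 months) to 2.43 (Bcl2a1b at 6 months).

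Whether the genotype difference itself changed with age was tested as the difference between the contrasts of neighbouring ages. From 2 to 4 months it grew for 4 of 10 members past both thresholds (4.66% of all genes, either direction). The increase was 1.23 ± 0.17 for Bcl2 (FDR = 8.17e-05), 1.01 ± 0.16 for Bcl2a1a (FDR = 0.000342), 0.91 ± 0.14 for Bcl2a1b (FDR = 0.000324) and 0.66 ± 0.13 for Bcl2a1d (FDR = 0.00261). Bcl2l1 (0.47 ± 0.13, FDR = 0.0304) and Bak1 (0.41 ± 0.11, FDR = 0.0264) passed the FDR threshold with changes under 1.5 fold. The value of Bid was -0.66 ± 0.22 (FDR = 0.0718). It passed both thresholds without rTg4510 replicate 2 (-0.88 ± 0.19) or without WT replicate 4 (-0.85 ± 0.20) of 4 months, and without WT replicate 1 of 2 months that of Bcl2a1d was 0.58 ± 0.12, just under the fold threshold. With all 32 libraries in the fit the increase of Bcl2 was 0.86 ± 0.30 (FDR = 0.119) and not called, that of Bcl2l1 was 0.61 ± 0.15 (FDR = 0.0233) and called, and Bak1 had -0.04 ± 0.30. From 4 to 6 months 0 of 10 members passed (0.156% of all genes), with 2 at an unadjusted p under 0.05. These were Bcl2 at -0.50 ± 0.17 (FDR = 0.34) and Bcl2a1b at 0.49 ± 0.14 (FDR = 0.254). From 6 to 8 months 0 of 10 passed, as did 0% of all genes, with 1 member, Bcl2l1, at an unadjusted p under 0.05 (0.31 ± 0.13, FDR = 0.9999). Limma with moderated variance also gave 0 members at both steps, beside 35 and 0 of 18588 genes. These contrasts share the libraries of the middle ages.

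Within rTg4510 the step from 2 to 4 months carried the changes with age. Bcl2a1b (0.91 ± 0.10, FDR = 1.87e-06), Bcl2a1a (0.88 ± 0.11, FDR = 9.87e-06) and Bcl2 (0.82 ± 0.12, FDR = 5.2e-05) rose, and Bid fell (-0.63 ± 0.15, FDR = 0.00733), which makes 4 of 10 members (6.39% of all genes, either direction). Bid was not called without rTg4510 replicate 3 of 2 months (-0.53 ± 0.15) or without replicate 1 (-0.54 ± 0.17) or 4 (-0.49 ± 0.17) of 4 months. Bcl2a1d (0.52 ± 0.09) was called without replicate 1 of 4 months alone (0.61 ± 0.10). At the later steps 0 members passed in rTg4510, beside 0.818% of all genes from 4 to 6 months and 0.00538% from 6 to 8 months, with 2 and 0 members at an unadjusted p under 0.05. In WT 0 members passed at any step (0.0484%, 0.00538% and 0% of all genes), with 2, 4 and 2 members at an unadjusted p under 0.05. The largest WT step was -0.41 ± 0.12 for Bcl2 from 2 to 4 months (FDR = 0.191).

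Of 16 further BCL2 family genes listed, 12 were analysed here and Bcl2a1c, Bcl2l10, Bok and Hrk were not. No gene of the 12 was called at 2 or 4 months, beside 1.58% and 9.47% of all genes called higher. At 6 months 3 were called higher (11.3% of all genes) and at 8 months 2 (10.5%). At any age 0 were called lower, beside 0.403% to 8.54% of all genes. Counts in a list this short are not read as a result. Pmaip1, which encodes the BH3-only protein NOXA, a binder of MCL1 and A1, had a mean log2 signal of 4.96 ± 0.73 in WT (SD, n = 4) and 6.42 ± 0.58 in rTg4510 (n = 4) at 6 months, where the libraries overlapped. Its log2 fold change was 1.46 ± 0.34 (SE, FDR = 0.00199) at 6 months and 1.39 ± 0.39 (FDR = 0.011) at 8 months. Bcl2l2, which encodes the survival protein BCL-W, had 0.85 ± 0.18 (FDR = 0.00103) at 6 months and 0.81 ± 0.21 (FDR = 0.00677) at 8 months. Bnip3, a BH3-like gene of mitophagy, had 0.80 ± 0.14 (FDR = 0.000153) at 6 months. The median log2 fold change of the 12 was 0.42 at 6 months and 0.39 at 8 months.

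Further lists hold genes that act beside the family. Of all genes 1.58%, 9.47%, 11.3% and 10.5% were called higher at 2, 4, 6 and 8 months. The shares called lower were 0.403%, 4.33%, 8.54% and 5.37%. Small counts in these lists can lie near such shares and are given as a description. Of 14 apoptosome and caspase genes 0 were called at any age, and Casp8, the caspase that cleaves BID, had a log2 fold change of -0.54 ± 0.05 at 6 months (FDR = 5.82e-08), under the fold threshold. The apoptosome genes Cycs (0.58 ± 0.13, FDR = 0.00145) and Apaf1 (0.40 ± 0.07, FDR = 0.000196) had differences in the other direction at 6 months, also under the fold threshold. Of 9 inhibitors of apoptosis, Birc5, a mitotic member, was called at 4 months (1.10 ± 0.27) and in the other direction at 6 months (-0.73 ± 0.24). Of 10 death receptor and adaptor genes analysed 1 was called, at 4 months, and of 9 p53 and FOXO genes none was. Of 5 NF-kappaB subunit genes, which regulate Bcl2a1 transcription, 2 were called higher at 4 and at 8 months and 0 at 6 months. Of 8 genes of MCL1 and BIM turnover, Mapk3 (0.63 ± 0.06) and Dynll1 (0.63 ± 0.11) were called at 6 months. Dynll1 encodes a dynein light chain that binds BIM, and Mapk3 the kinase ERK1. Of 8 membrane and ER partners, Vdac2, a porin that binds BAK, was called higher at 6 months (0.61 ± 0.08), and the calcium channel genes Itpr1 (-0.60 ± 0.11), Itpr2 (-0.62 ± 0.07) and Itpr3 (-0.73 ± 0.07) were called lower.

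Neutrophils also express Bcl2a1 genes, so markers of other CD11b-positive cells are given beside these results. The shares of all genes called at each age, given above, stand beside all marker counts as well. Of 12 neutrophil markers 0 were called at 2 and 4 months, 9 were called lower in rTg4510 at 6 months and 7 at 8 months, and 0 were called higher at any age. At 6 months the log2 fold change was -2.15 ± 0.38 for S100a8, -2.02 ± 0.35 for S100a9 and -2.06 ± 0.43 for Camp. The log2 of the summed signal of the list was 10.45, 11.05, 10.70 and 11.10 in WT and 10.34, 10.22, 10.31 and 10.24 in rTg4510 at 6 months, and 11.14, 10.99 and 10.97 in WT and 10.14, 10.42 and 10.58 in rTg4510 at 8 months. At 2 months WT libraries lay between 10.33 and 10.75 and rTg4510 libraries between 10.22 and 11.19, and at 4 months between 10.40 and 11.11 and between 10.50 and 10.69. Csf3r, the gene of highest signal in the list, went the other way and passed the FDR threshold with a change under 1.5 fold at 4, 6 and 8 months (0.35 ± 0.08, 0.45 ± 0.07 and 0.38 ± 0.08), and all its rTg4510 libraries were above all WT libraries at every age. The defining markers Ly6g, Elane and Mpo lay within 1 log2 unit of the library's lowest value in 8, 14 and 10 of 28 libraries. Cxcr2 and Ly6g did not pass the FDR threshold at any age.

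Of 7 monocyte and dendritic cell markers 0, 2, 3 and 1 were called lower at 2, 4, 6 and 8 months, and of 7 border macrophage markers 1 was, at 6 months, while 0 of either list were called higher. At 4 months the summed signal of monocyte and dendritic cell markers did not overlap, with WT between 8.37 and 8.74 and rTg4510 between 7.74 and 7.77 on the log2 scale. The log2 of the summed signal at 6 months was 8.60 to 8.88 in WT and 7.88 to 8.76 in rTg4510 for monocytes and dendritic cells (highest signal Cd209a), and 10.49 to 11.03 and 10.28 to 10.65 for border macrophages (highest signal Mrc1). Of 5 B cell markers analysed Cd22 was called higher at each age (3.14 ± 0.18 at 6 months) while Cd79a and Cd79b were called lower at 4 months. Of 5 T and NK cell markers 1 was called lower at 4 and 1 at 6 months, and of 2 neuron, 5 astrocyte and 4 endothelial markers 1, 2 and 2 were at 6 months. The first list has Cd3d, Cd3g, Cd8a and Cd8b1 and the neuron list Rbfox3, Slc17a7, Tubb3, Nefl and Gad1 that were not analysed here, as Pax5 of the B cell list and Fasl of the death receptors were not. Gfap (1.52 ± 0.30) and Flt1 (1.89 ± 0.24) were called higher and Aqp4 (-1.22 ± 0.41) and Pecam1 (-2.12 ± 0.14) lower at 6 months. These genes were called in the same directions at 8 months, and Flt1 and Pecam1 at 4 months too. At 4 and 8 months 1 endothelial marker was called higher and 1 lower, and at 8 months 1 astrocyte marker higher and 2 lower. Of 7 genes of dividing cells 4 were called higher at 4 months, 4 lower at 6 months and 3 lower at 8 months, with -1.13 ± 0.14 for Mki67 and -0.90 ± 0.18 for Top2a at 6 months. In rTg4510 at 6 months the highest signals of these lists were those of Cd22 (B cells), Cd4 (T and NK cells), Snap25 (neurons), Slc1a3 (astrocytes), Flt1 (endothelium) and Cdk1 (dividing cells), while in some other groups another gene of the list was above Cd22, Cd4, Flt1 and Cdk1. The part of other cells or of cell division in the values of the members was not tested.

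Genes most like a member by their means over the 8 groups were looked up among 5900 genes whose means spanned at least 1 log2 unit. The other Bcl2a1 copies are left out of the list of Bcl2a1b, although the group means of Bcl2a1a follow those of Bcl2a1b about as closely as the genes named. Rows without a gene symbol are left out of every list. For Bcl2 and Bid other members were not left out, and none is among the genes named. For Bcl2a1b the closest genes listed were Tpt1 (Pearson r = 0.999), Tpt1-ps5 (0.998), Rpl17-ps9 (0.998) and Rpl29-ps5 (0.998). The last 3 are pseudogenes with near-identical parent genes and are uncertain. For Bcl2 the closest genes listed were Asb10 (0.984), Il4i1 (0.983), Il4i1b (0.982) and Rps2-ps5 (0.978), and for Bid Ceacam1 (0.996), Gm5281 (0.993), Gm29781 (0.993) and Mtss1 (0.992). The 8 means share libraries and normalization, so r is a description.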

How the data were processed

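RNA-seq of CD11b-captured microglia was analysed from the deposited table of log2 gene signals. Per the labels the genome build was GRCm38, and the aligner and annotation are not given in the sources used here. The authors dropped exons that had under 10 counts in more than 80% of samples. They rolled exons up to genes by robust linear modelling and scaled log2 signals to a common median. No column of values was left unused. Genes were named by Entrez number from RefSeq (GRCm38.p6), where 17828 of 18588 numbers (95.9%) were found.

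Contrasts were fitted with R 4.3.3 and its packages limma 3.58.1 and data.table (version 1.17.8) over the 28 libraries that the authors kept, as a linear model of 8 group means without moderation, and p-values were Benjamini-Hochberg adjusted over all genes within a contrast. The model was also run on simulated data, but the outcome is not given here and no result rests on it. The number of libraries limits the precision: the median SE of a member's log2 fold change was 0.112. Sequences were compared with Biopython 1.88 in Python 3.11.15, and figures drawn with matplotlib 3.10.9.

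Members and gene lists were chosen with earlier results of these data known. Named were all members and further family genes called at any age. Of a pathway list at most 4 called genes were named, by size of change at 6 months. A marker list gave the gene of highest signal in rTg4510 at 6 months and at most 3 called at 2 or more ages. The 4 genes with a symbol that were most like each of 3 members were also named, without the other Bcl2a1 copies for Bcl2a1b. Birc5 at 4 months, Casp8, Itgam, Cycs, Apaf1, Cd79a, Cd79b, the near-floor neutrophil markers, Cxcr2 and the members named beside counts were added after their values were seen. Labels give both genotypes the same replicate numbers. After group means were subtracted, libraries with the same number had an r over all genes between 0.131 and 0.153 at 6 months and between 0.15 and 0.291 at 8 months. From these values only, the numbers were taken as pairs at those ages.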

Additional observations from a re-analysis of the deposited data

Results flagged for a closer look

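Among 40 groups of 4 libraries (10 members, 2 and 6 months), 4 held a library far from the other 3 by Dixon's ratio, and chance gives about 1 such group in 20. Bcl2a1d was 10.39 in 1 WT library of 2 months, against 10.05 to 10.10 in the others. Bcl2 was 8.20 in 1 rTg4510 library of 2 months, against 7.96 to 7.99. Bcl2l11 was 5.71 in 1 WT library of 6 months, against 6.07 to 6.11, and 5.58 in 1 rTg4510 library of 2 months, against 5.92 to 5.98.

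The genotype difference changed between 2 and 4 months, tested as an interaction in limma, for 6 of 10 members at an FDR under 0.05, beside 1363 of 18588 genes at that threshold. The change of the log2 fold change was 1.2305 for Bcl2, 1.0058 for Bcl2a1a, 0.9135 for Bcl2a1b, 0.6561 for Bcl2a1d, 0.4725 for Bcl2l1 and 0.4075 for Bak1.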

How the results depend on the processing

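The 21 called genotype differences of single members at an age kept their direction under each of the 7 alternatives run (all 32 libraries, moderated variance, only the groups of an age, replicate block, quantile normalization, a filter on low signals, no minimum fold). All 21 stayed called under moderated variance, the replicate block, the filter and when any 1 of the 28 libraries was left out. Calls were lost with all 32 libraries (2), with only the groups of an age (2) and after quantile normalization (3), and the cause was not tested.

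With all 32 libraries 1 member, not 3, was called higher at 2 months, beside 135, not 293, of 18588 genes. In a fit of the groups of 4 months alone 0, not 1, were called lower, with fewer samples behind the variance. Over all genes that count was 395, not 804. With no minimum fold 8, not 4, were called higher at 6 months, beside 3555, not 2101, of all genes. Some differences that were not called changed sign. After quantile normalization Bak1 was -0.0065 at 2 months and Mcl1 -0.083 at 4 months. With all 32 libraries Bak1 was -0.022 at 4 months and its change from 2 to 4 months -0.042, although both (0.43 and 0.41) had passed the FDR threshold without the 4 libraries, and the change of Mcl1 was 0.234. The cause was not tested. Leaving out 1 library in turn gave ranges across 0 at 2 months for Bcl2 (-0.070 to 0.092), Bak1 (-0.029 to 0.052) and Bcl2l11 (-0.138 to 0.042), at 6 months for Bcl2l11 (-0.169 to 0.036), and from 2 to 4 months for Mcl1 (-0.2338 to 0.0042). It gave 0 to 1 members whose difference moved down, and 0 to 1 that fell within rTg4510, from 2 to 4 months.

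Over all genes at 2 months the calls numbered 368 (79.6% higher), but 165 with all 32 libraries, 244 with the groups of that age alone, 312 after quantile normalization (68.3% higher) and 1121 with no minimum fold. At 4, 6 and 8 months the last gave 4317, 6332 and 4784 calls, beside 2564, 3689 and 2950, and a fit of the groups alone gave 1561 at 4 months and 1854 at 8 months. Quantile normalization moved the median log2 fold change of all genes by under 0.1. The replicate block gave 3, 5, 4 and 6 members higher and 0, 1, 1 and 1 lower at 2, 4, 6 and 8 months, as without it, and changed no call of a member. Over all genes it gave 294, 1734, 2075 and 1945 higher and 82, 819, 1637 and 1048 lower. At 2 and 4 months same-numbered libraries correlated at 0.065 to 0.167 and -0.0999 to 0.124, so there the numbers were not taken to pair libraries.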

Other observations

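The 4 libraries that the authors left out had values for all members. In rTg4510 replicate 3 of 4 months Bcl2a1a was 12.02, Bcl2a1b 12.88, Bcl2a1d 11.82, Mcl1 11.60 and Bcl2l1 9.70, each above every library used. In the same library Bcl2 was 7.42 and Bak1 6.93, each below every library used. In WT replicate 3 of 4 months Bcl2a1a was 8.47, Bcl2a1b 9.52 and Bcl2a1d 9.10, each below every library used. In replicate 4 of 8 months Bcl2a1b was 9.94 in WT and 11.98 in rTg4510, and Bid was 5.01 and 4.10.

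Over the 28 libraries the deviations of the Bcl2a1 copies from their group means correlated with each other, with r of 0.836 for Bcl2a1a and Bcl2a1b, 0.801 for Bcl2a1a and Bcl2a1d, and 0.754 for Bcl2a1b and Bcl2a1d. The copies share libraries and nearly the same sequence, so this is a description.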
